A study of Homo sapiens with 12 samples.

Results

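Lipofection and PTD-DRBD, both carrying a small interfering RNA (siRNA) against GAPDH, were compared 24 h after treatment in H1299 cells. H1299 is an established line from a human lung carcinoma of the non-small cell type, and its cells have no p53. The comparison sets the 2 arrays of cells lipofected with GAPDH siRNA against the 2 arrays of cells given GAPDH siRNA with PTD-DRBD, chosen by their titles, 4 of the 12 arrays in the series. PTD-DRBD is a fusion protein whose peptide transduction domain carries it across cell membranes and whose double-stranded RNA binding domain holds the siRNA; lipofection packs the siRNA into cationic lipid. Cells in all groups grew in DMEM with 10% FCS and were exposed for 6 h to PTD-DRBD with siRNA, to lipofected siRNA or, as the control, to PBS buffer, then washed and collected at 12 h or 24 h, with 2 arrays for each of the 6 groups. The dose of siRNA and the lipid used are not given in the sources used here, and no array of a carrier without siRNA, or of another siRNA, was analysed here. A difference between the carriers therefore holds the carrier, the amount of siRNA that reached the cells and the depth of the GAPDH knockdown together, and these cannot be told apart. The labels do not say whether the arrays of a group stand for separate cultures, so p-values measure the spread between arrays, which may be technical.

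GAPDH is the glycolytic enzyme glyceraldehyde-3-phosphate dehydrogenase and a frequent target in tests of siRNA delivery, since its mRNA is abundant. An siRNA guides Argonaute proteins to a matching mRNA, which is then cut, so the level of the target reports how much siRNA became active. Cationic lipid complexes enter cells largely through endosomes. HMOX1 (heme oxygenase 1) breaks down heme and is under the control of NRF2, a transcription factor that binds antioxidant response elements. C/D box small nucleolar RNAs (snoRNAs) guide the methylation of ribosomal RNA and are cut out of the introns of other genes, many of which encode ribosomal proteins. Messenger RNAs of replication-dependent histones end in a stem-loop in place of a poly(A) tail and are made mostly in S phase.

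Differences are given as log2 lipofection minus PTD-DRBD on background-corrected and normalized intensities, so that a positive value means a higher level with lipofection. Each has its standard error (SE), a fold where it helps, and an adjusted p from a limma fit over all 12117 genes tested, with n = 2 arrays in each group. A gene is called higher or lower where that adjusted p was under 0.05. Levels of an array are log2 intensities of 1 probe, which cannot be set against another gene's. Between 17990 and 19097 of the 48701 probes were detected on each array, and the 4 arrays compared lay between 18387 and 18788. The second arrays of both treated groups at 24 h deviated from the first in a related way, with a correlation across genes of 0.322 between their replicate differences. Over the other pairs of groups this correlation ran from -0.4, between PTD-DRBD at 12 h and lipofection at 24 h, to 0.228. The main counts below were therefore also made without both second arrays, as an alternative chosen after seeing the data. Of 8 markers of the H1299 line with a probe (such as VIM, KRT8 and CDH2), 7 were detected on both arrays of every 24 h group. The other marker, KRT19, was detected on none. Of 20 markers of other cell types with a probe, 2 were detected on both control arrays and both PTD-DRBD arrays (PTPRC and CD68), and 3 on both lipofection arrays (the same pair and PECAM1). Their summed normalized levels (linear scale) were 5030 to 5040 with PTD-DRBD, 4330 to 4350 with lipofection and 4670 to 5020 in the control. The part of these markers in the results was not tested.

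At 24 h, 1000 of the 12117 genes (8.25%) differed between the carriers by limma, 568 higher with lipofection (4.69%) and 432 lower (3.57%). The larger differences ran mostly one way: 104 genes (0.858%) were at least 1.6-fold higher with lipofection and 9 (0.0743%) at least 1.6-fold lower, together 0.933% of the genes. Of those 104, 25 belonged to 47 measured small noncoding RNAs and 14 to 49 measured replication-dependent histones. All other genes, 12021 of them, gave 65 higher and 9 lower at that fold. The typical gene moved little, with a median absolute difference of 0.121 log2 beside a median SE of 0.098. Leaving out any 1 of the 4 arrays left between 375 and 538 genes, and without both second arrays 142 remained past the threshold, 112 higher and 30 lower. A fit on the 4 arrays alone, in place of all 12, gave 209, of which 163 were higher.

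**Figure D1:**
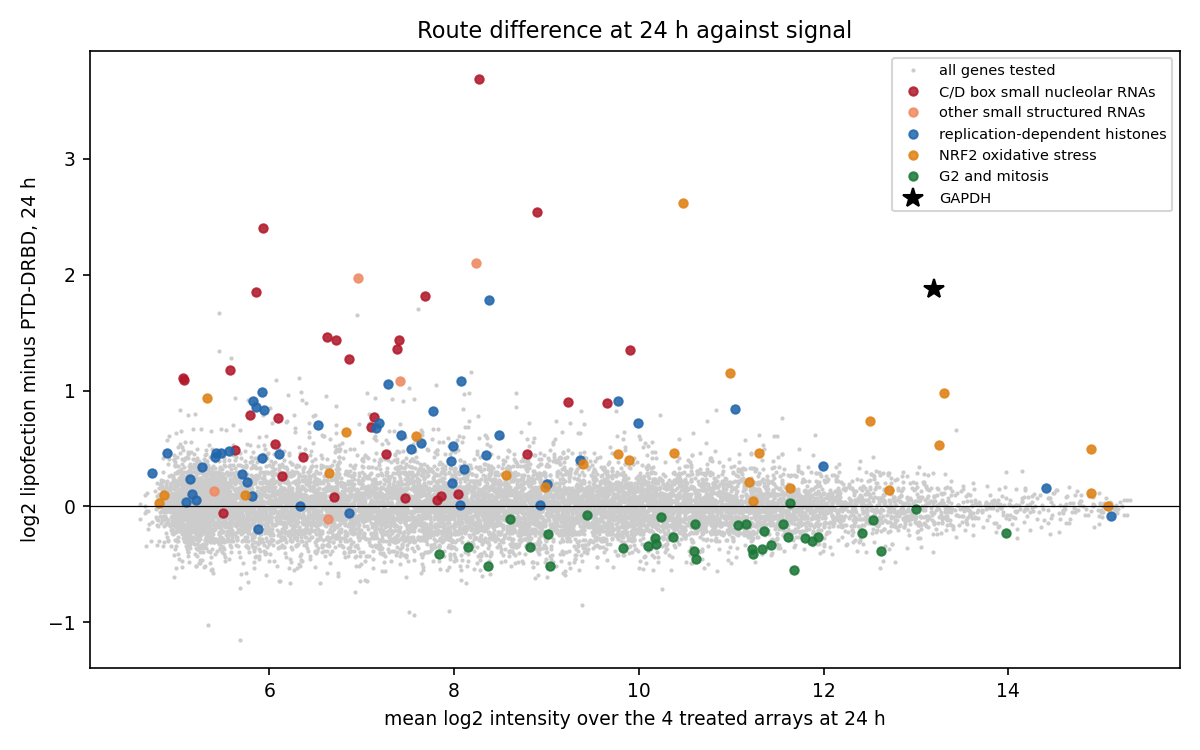
Log2 difference between lipofection and PTD-DRBD at 24 h (vertical axis) against the mean log2 intensity of the 4 arrays (horizontal axis), 1 point for each of the 12117 genes, with gene lists in colour and GAPDH as a star. SNORD15B (3.69), HMOX1 (2.62) and SNORD4A (2.54) stand highest, and members of the G2 and mitosis list (green) lie mostly below 0.

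GAPDH itself, the target, was lower after both treatments and much lower with PTD-DRBD. Its log2 level was 15.09 and 15.11 on the control arrays, 12.27 and 12.25 on those of PTD-DRBD and 14.07 and 14.21 on those of lipofection. The 3 groups did not overlap, and replicates lay far closer together than the groups. On the linear scale GAPDH stood at 14% and 13.9% of the control on the PTD-DRBD arrays, and at 48.8% and 54% on the lipofected ones. Cells lipofected with the siRNA thus held 3.68 times as much GAPDH signal as PTD-DRBD cells (log2 1.88, SE 0.08, limma adjusted p = 1.61e-07). Ratios of 4.21 and 4.56 came from the 2 further probes of this gene. In the authors' deposited table of changes against control at 24 h, the 3 GAPDH probes had folds of -7.42, -11.4 and -12.8 for PTD-DRBD and of -1.88, -2.59 and -2.67 for lipofection. The carriers differed as much at 12 h (log2 2.09), and the change between the times, -0.21, did not pass (limma adjusted p = 0.33).

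**Figure D2:**
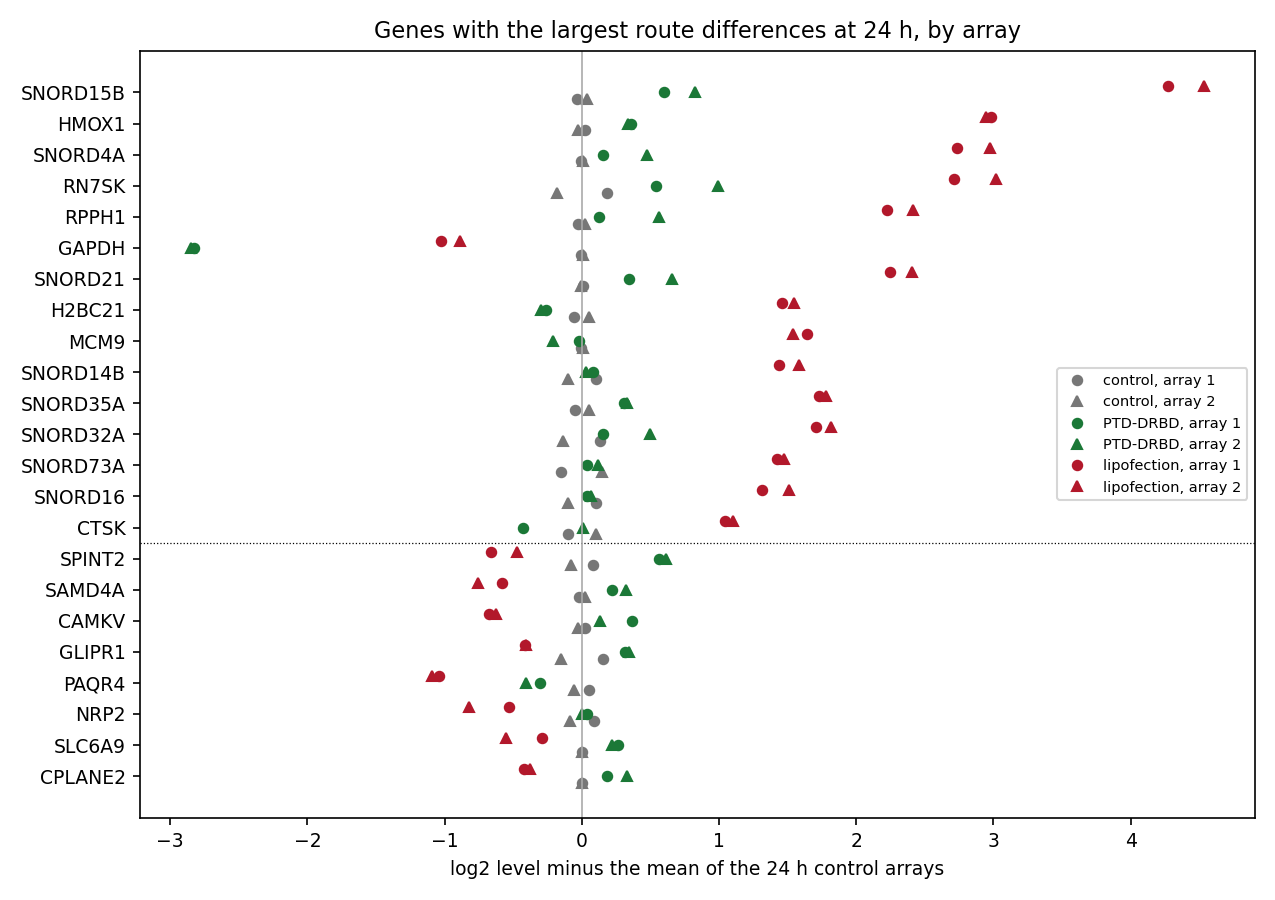
Log2 level on each 24 h array minus the mean of the control arrays (horizontal axis) for GAPDH and other genes. These are the 14 other genes with the largest rises and 8 of those with the largest falls with lipofection relative to PTD-DRBD. The ranking is among genes detected in both groups on at least 1 array. Genes with bounds, among them SNORD38B, SNORD4B, BMF, FOSB and AMHR2, are not drawn, nor are clone and pseudogene names. Grey marks control, green PTD-DRBD and red lipofection, with a circle and a triangle for the arrays of a group. Red and green do not overlap for any gene shown, and GAPDH is the gene whose PTD-DRBD arrays lie farthest from the control.

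The other genes of glycolysis gave few calls. Of 24 measured genes of glycolysis and lactate handling other than GAPDH, 2 were higher with lipofection and 1 was lower, with a median difference of 0.00, beside 4.69% and 3.57% of all genes. SLC2A3, a glucose transporter, was at 11.07 and 11.27 with PTD-DRBD against 11.86 and 12.01 with lipofection, a difference of 0.76 (SE 0.10). PFKFB2, which makes the activator of phosphofructokinase, differed by 0.57 on its brightest probe, and by 0.28 and 0.12 on the others. PFKM, the muscle form of phosphofructokinase, was lower at -0.35 (SE 0.08), a call that was lost without any 1 of the 4 arrays. Of 18 common reference genes, which include ACTB, TBP and HPRT1, 1 was higher (B2M, 0.28) and the median was -0.01.

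Small noncoding RNAs held the largest differences between the carriers. SNORD15B, a C/D box snoRNA in an intron of RPS3, was at 6.30 and 6.53 with PTD-DRBD and at 9.98 and 10.24 with lipofection, against 5.67 and 5.74 in the control. That is a difference of 3.69 (SE 0.13, 12.9-fold, limma adjusted p = 3.11e-08), the largest among the 12117 genes. Its PTD-DRBD arrays also stood above the control, by 0.71 (limma adjusted p = 0.00668), while lipofection raised it by 4.40. SNORD4A, in an intron of RPL23A, was at 7.47 and 7.79 with PTD-DRBD against 10.05 and 10.29 with lipofection (2.54, SE 0.12, 5.82-fold). SNORD21, in RPL5, was at 6.62 and 6.93 against 8.52 and 8.68 (1.82, SE 0.10). For each of these RNAs the second array of both carriers read higher than the first, by less than the gap between the carriers. SNORD38B and SNORD4B were below detection on both PTD-DRBD arrays, so lipofection gave at least 4.21-fold and at least 3.30-fold higher signals. These bounds take, for each PTD-DRBD array, the higher of the probe's own level and the dimmest detected probe.

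Across the family, 20 of 32 measured C/D box snoRNAs were higher with lipofection and none was lower, with a median of 0.84, where 4.69% of all genes were higher and the median of all genes was -0.002. Against the control, lipofection raised 26 of the 32 (of all genes, 23.6% were called in that comparison, 10.6% higher and 12.9% lower) and PTD-DRBD 9 (14% called, 5.87% higher and 8.15% lower). Those comparisons share the control arrays. The median over the list stood at 1.07 and 1.25 above the control on the lipofection arrays and at 0.16 and 0.30 on the PTD-DRBD arrays. Leaving out any 1 of the 4 arrays gave 19 to 21 higher, and without both second arrays 18 were. The list holds 42 RNAs, and those counted as measured were detected on both arrays of some group. SNORD38B and SNORD4B met this in lipofected groups alone. They thus entered the count only through the groups where they were high.

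The snoRNAs split by the gene that holds them. Of 25 measured in introns of 13 ribosomal protein genes, 19 were higher with lipofection, with a median of 1.11 and a range from 0.08 to 3.69. Of 5 in introns of SNHG1, a noncoding host gene that carries several snoRNAs, none was higher, with a median of 0.09 and a range from -0.06 to 0.26. HSPA8, a heat shock cognate, holds SNORD14C, which was higher at 0.90, and SNORD14D, at 0.06. The ranges for SNHG1 and the ribosomal protein genes overlap at their low end, and this difference between hosts was seen in the values and was not tested. Of the 15 host genes, 11 were measured and none passed the test, and their values ran from -0.14 to 0.18 with a median of 0.00. RPS3, the host of SNORD15B, was at 0.00 (SE 0.07). The probes of these RNAs, 62 to 146 bases long in RefSeq, cannot tell a mature snoRNA from an intron that still holds it, and the labelling kit starts from poly(A) tails, which mature snoRNAs lack.

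**Figure D3:**
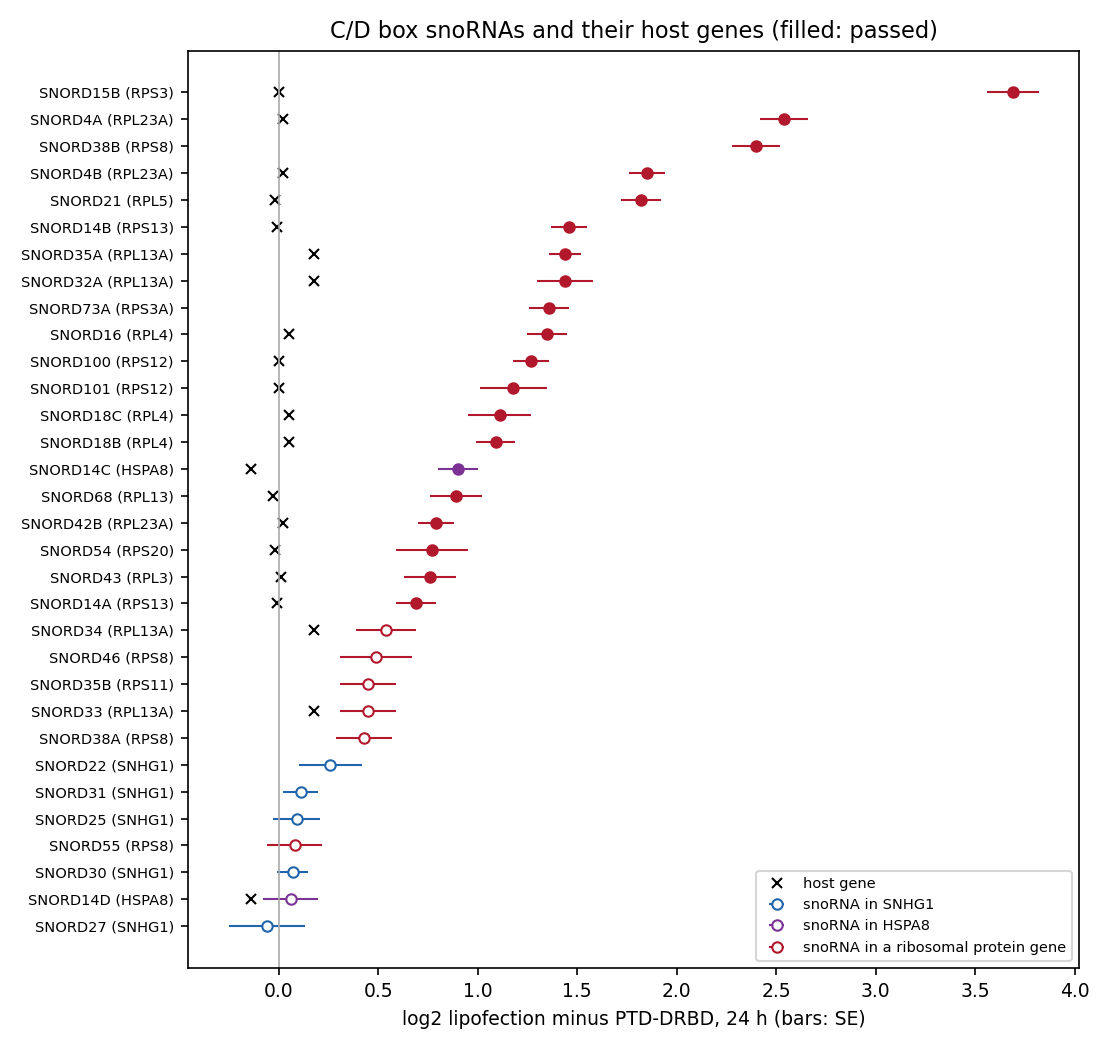
Log2 difference between lipofection and PTD-DRBD at 24 h (horizontal axis, bars are SE) for the 32 measured C/D box snoRNAs, each named with its host gene; filled circles passed the test, colour gives the kind of host, and crosses give the host gene's own difference where it was measured. The host genes lie between -0.14 and 0.18 while 19 snoRNAs in ribosomal protein genes passed, and the 5 snoRNAs of SNHG1 lie between -0.06 and 0.26.

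H/ACA box snoRNAs guide the conversion of uridine to pseudouridine. Of 10 measured H/ACA and Cajal body RNAs, 3 were higher and none was lower, with a median of 0.25, beside 4.69% of all genes higher. SNORA7B was at 7.52 and 7.69 with PTD-DRBD against 8.66 and 8.87 with lipofection (1.16, SE 0.11). SNORA64 differed by 0.98 and SNORA25 by 0.58. Of 37 genes of the RNA exosome and small RNA processing, 3 were lower and none was higher (median -0.04), beside 3.57% of all genes lower, and 12 of the 37 estimates were above 0. With any 1 array left out 2 were lower, and none without both second arrays. The 3 encode exosome subunits: EXOSC3 (-0.47, and -0.45 on its other probe), EXOSC2 (-0.46) and EXOSC8 (-0.27). The EXOSC8 call was lost without any 1 of the 4 arrays.

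Of 5 other small structured RNAs measured, 3 were higher with lipofection at both times and none was lower at 24 h (median 1.08), beside 4.69% of all genes. The other members, RNU11 at 0.13 and 1 at -0.11, did not pass. RN7SK, the 7SK RNA that holds the elongation factor P-TEFb inactive, was at 6.96 and 7.41 with PTD-DRBD and at 9.13 and 9.44 with lipofection, against 6.60 and 6.24 in the control. The difference was 2.10 (SE 0.17, 4.28-fold, limma adjusted p = 4.55e-05). RPPH1, the RNA of ribonuclease P, was at 5.76 and 6.20 against 7.86 and 8.05 (1.97, SE 0.17, 3.93-fold). RNU6ATAC, a small nuclear RNA of the minor spliceosome, was at 6.68 and 7.07 against 7.95 and 7.98 (1.08, SE 0.15). In each case the carriers did not overlap, and the second PTD-DRBD array lay above the first. At 12 h the differences were 2.52, 2.40 and 1.75, and none of the 3 changed with time by the test (limma adjusted p = 0.369, 0.365 and 0.0992). Labelling started from poly(A) tails here too, so which forms of these RNAs were read is not known.

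RPPH1 (chr14:20343071-20343411) lies beside PARP2, a gene for a DNA repair enzyme that starts at 20343635 in GRCh38.p14. Between the highest coordinate of RPPH1 and the PARP2 start lie 223 bases. The window shown runs from 250 bases before to 50 bases after the PARP2 start on the plus strand, chr14:20343385-20343684, and is given because it holds the whole stretch between these neighbours, which differed in opposite directions. Capitals mark TATAA, found here on both strands in 1 palindromic run, and the octamer ATTTGCAT, found on the minus strand.
PARP2: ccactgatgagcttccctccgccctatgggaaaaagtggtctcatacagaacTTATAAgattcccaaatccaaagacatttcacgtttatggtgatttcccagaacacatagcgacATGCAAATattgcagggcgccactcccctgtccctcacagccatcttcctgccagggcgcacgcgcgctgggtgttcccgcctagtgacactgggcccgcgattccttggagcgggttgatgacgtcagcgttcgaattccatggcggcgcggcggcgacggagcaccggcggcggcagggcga
PARP2, picked after its value was seen, was lower with lipofection (-0.30, SE 0.08, limma adjusted p = 0.0366) while RPPH1 was higher. A match to these letters describes the sequence. It shows neither a binding site nor which of these neighbours the letters belong to.

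Replication-dependent histone genes formed the other large group of high values. Of 49 measured, 22 were higher with lipofection and none was lower, with a median of 0.44, beside 4.69% of all genes. Against the control, which both comparisons share, lipofection raised 37 of the 49 (10.6% of all genes) and PTD-DRBD raised 8 (5.87% of all genes) and lowered 1 (8.15%). H2BC21, an H2B gene, was at 7.50 and 7.47 with PTD-DRBD, 9.22 and 9.31 with lipofection and 7.71 and 7.82 in the control (1.78, SE 0.07, 3.43-fold, limma adjusted p = 1.61e-07). It thus lay above the control with lipofection (1.50) and below it with PTD-DRBD (-0.28, limma adjusted p = 0.032). H2BC8, also an H2B gene, was at 7.32 and 7.75 against 8.57 and 8.67 (1.08, SE 0.12). H3C10, an H3 gene, was at 6.65 and 6.85 against 7.72 and 7.91 (1.06, SE 0.11). H4C2, an H4 gene, was at 4.97 and 5.89 against 6.36 and 6.47 (0.99, SE 0.21), and its call was lost without either lipofection array. The number of higher histone genes ran from 11 to 20 when any 1 array was left out, and was 9 without both second arrays. Histone genes of a class are close copies, so probes may share signal between them. The labelling kit starts from poly(A) tails, which mRNAs of these genes mostly lack, so which forms were read is not known.

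The histone promoters are shown for H2BC21 and H2BC8, the members with the largest differences, on the minus strand of GRCh38.p14 at chr1:149886633-149886932 and chr6:26216639-26216938, each 250 bases before to 50 after the start. Capitals mark the TATAA box, the CCAAT box and the octamer ATTTGCAT on either strand, sequences known from histone promoters.
H2BC21: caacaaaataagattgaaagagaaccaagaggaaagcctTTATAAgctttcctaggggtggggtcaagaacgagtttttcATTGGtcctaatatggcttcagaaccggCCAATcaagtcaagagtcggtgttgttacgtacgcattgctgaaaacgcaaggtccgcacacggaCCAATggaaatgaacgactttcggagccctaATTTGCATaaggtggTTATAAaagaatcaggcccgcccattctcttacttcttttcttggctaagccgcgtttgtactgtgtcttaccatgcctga
H2BC8: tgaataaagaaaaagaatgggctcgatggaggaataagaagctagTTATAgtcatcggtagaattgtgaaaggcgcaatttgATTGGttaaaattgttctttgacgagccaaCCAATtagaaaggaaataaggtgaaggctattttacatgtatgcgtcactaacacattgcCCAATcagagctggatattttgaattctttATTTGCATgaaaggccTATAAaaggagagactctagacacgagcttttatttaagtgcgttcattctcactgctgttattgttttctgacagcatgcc
Both have the octamer (first base at -46 and -48 from the start), a TATAA box close to the start (-30 and -32) and 3 CCAAT boxes. Of 49 RefSeq windows of the measured histone genes, which cover 45 of the 49 genes, 89.8% held TATAA, 87.8% CCAAT and 42.9% the octamer, on either strand. Over all 35093 promoter windows of the same length these shares were 20.4%, 34.6% and 1.77%. The windows of histone genes that were higher with lipofection held the octamer in 36.4% of 22 and those that did not pass in 48.1% of 27. These shares are given as a description, with no test.

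HMOX1 had the largest difference of any protein-coding gene. It was at 9.18 and 9.16 with PTD-DRBD and at 11.81 and 11.77 with lipofection, against 8.85 and 8.80 in the control. The difference was 2.62 (SE 0.07, 6.16-fold, limma adjusted p = 5.43e-09), and the arrays of a group lay within 0.05 of each other. PTD-DRBD raised HMOX1 above the control by 0.34 (limma adjusted p = 0.0141) and lipofection by 2.97. In the authors' deposited table of changes against control HMOX1 has a fold of 7.24 with lipofection.

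The NRF2 list followed HMOX1 in direction. Of 26 measured genes of the response to oxidative stress, 13 were higher with lipofection and none was lower, with a median of 0.39, beside 4.69% of all genes higher. Against the shared control, lipofection raised 18 and lowered none, beside 10.6% of all genes raised, and PTD-DRBD raised 3 and lowered 2, beside 5.87% raised and 8.15% lowered. SRXN1, sulfiredoxin, which repairs overoxidized peroxiredoxins, was at 10.52 and 10.30 with PTD-DRBD against 11.63 and 11.48 with lipofection (1.15, SE 0.11). NQO1, a quinone reductase, was at 12.84 and 12.79 against 13.83 and 13.76 (0.98, SE 0.07, limma adjusted p = 2.34e-05). AKR1B10, an aldo-keto reductase, was below detection with PTD-DRBD and at least 1.67-fold higher with lipofection. ME1, malic enzyme, which supplies NADPH, differed by 0.61 (SE 0.07). Ferritin light chain, FTL, which stores iron, differed by 0.50, and NCOA4, the receptor that delivers ferritin to lysosomes, by 0.30. Of 19 genes of heme and iron handling, these and HMOX1 were the 3 that passed. Leaving out any 1 array gave 9 to 13 higher genes in the NRF2 list, and 7 were higher without both second arrays.

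Promoters of ME1, which passed, and GCLM, a subunit of glutathione synthesis that did not (0.21), are shown to give the antioxidant response core TGACNNNGC, in capitals on either strand. Both lie on the minus strand of GRCh38.p14, ME1 at chr6:83431002-83431301 and GCLM at chr1:93909381-93909680.
ME1: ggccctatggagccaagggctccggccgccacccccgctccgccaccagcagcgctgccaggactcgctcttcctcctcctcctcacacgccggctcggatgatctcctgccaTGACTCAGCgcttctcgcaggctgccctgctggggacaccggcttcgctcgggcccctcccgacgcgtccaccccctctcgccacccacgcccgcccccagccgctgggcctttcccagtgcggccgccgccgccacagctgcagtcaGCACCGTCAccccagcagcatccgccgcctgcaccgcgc
GCLM: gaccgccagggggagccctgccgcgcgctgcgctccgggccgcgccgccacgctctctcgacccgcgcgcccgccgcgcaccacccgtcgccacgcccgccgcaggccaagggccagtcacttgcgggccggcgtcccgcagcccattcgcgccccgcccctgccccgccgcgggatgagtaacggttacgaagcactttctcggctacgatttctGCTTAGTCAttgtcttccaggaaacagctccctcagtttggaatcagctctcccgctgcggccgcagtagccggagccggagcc
Of 27 windows of the list, which cover 20 of the 26 genes, 33.3% held the core, against 13.4% of all windows. It was in 30.8% of the windows of genes that passed and in 35.7% of the others.

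Calls among genes of lysosomes and autophagy were all toward higher levels with lipofection. Of 34 measured lysosomal genes, 7 were higher and none was lower (median 0.17), beside 4.69% of all genes higher, and 32 of the 34 estimates were above 0. CTSK, the protease cathepsin K, had the largest difference of the list, at 4.73 and 5.17 with PTD-DRBD against 6.20 and 6.26 with lipofection (1.28, SE 0.13). It was detected on 1 of the 2 PTD-DRBD arrays. NEU1, lysosomal sialidase, differed by 0.63 (SE 0.10). LAMP2, a lysosomal membrane protein, differed by 0.36 on its brightest probe and by 0.32 to 0.51 on the others. Of 24 autophagy genes, 4 were higher and none was lower, against the same share: SQSTM1 (the cargo receptor p62, 0.66), MAP1LC3B (0.61), OPTN (a cargo receptor, 0.52) and GABARAPL1 (0.39). Against the shared control, lipofection raised 8 of the 24 and lowered 1, beside 10.6% and 12.9% of all genes. PTD-DRBD raised none and lowered 4, beside 5.87% and 8.15%. OPTN was at -0.37 with PTD-DRBD and 0.16 with lipofection, which did not pass. MAP1LC3B was at -0.35 and 0.26, and both passed. SQSTM1 was at 13.21 and 12.98 against 13.88 and 13.64, so the groups did not overlap. The number of lysosomal genes that were higher fell to 2 or 3 when any 1 array was left out and to 1 without both second arrays.

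Of 23 measured genes of cholesterol synthesis and uptake, 5 were higher with lipofection than with PTD-DRBD and none was lower (median 0.20), beside 4.69% of all genes higher. Against the shared control, PTD-DRBD lowered 8 and raised none (median -0.20), beside 8.15% of all genes lower, and lipofection raised 2 and lowered 2 (median 0.00). MSMO1, a sterol oxidase, was at 11.22 and 11.32 in the control, 11.02 and 10.95 with PTD-DRBD against 11.46 and 11.42 with lipofection (0.45, SE 0.07). INSIG1, which holds the SREBP activator in the endoplasmic reticulum, was at 11.33 and 11.24 against 11.81 and 11.63 (0.43, SE 0.09), and its other probe gave 0.30. HMGCS1, which makes the precursor of mevalonate, differed by 0.34 and IDI1, an isomerase of the pathway, by 0.32. Among 20 genes of fatty acid synthesis and desaturation, 4 were higher and 1 was lower, beside 4.69% and 3.57% of all genes. Besides ME1, these included ACSS2 (acetyl-CoA synthetase, 0.38), SCD (a desaturase, 0.30) and, lower, ELOVL6 (an elongase, -0.32). Against the shared control, PTD-DRBD lowered 6 of the 20 and raised none, while lipofection raised 2 and lowered 3. ACSS2 and SCD were at -0.60 and -0.36 with PTD-DRBD. With lipofection they were at -0.23 and -0.06, and neither passed. Between 1 and 3 cholesterol genes passed with any 1 array left out, and none without both second arrays.

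**Figure D4:**
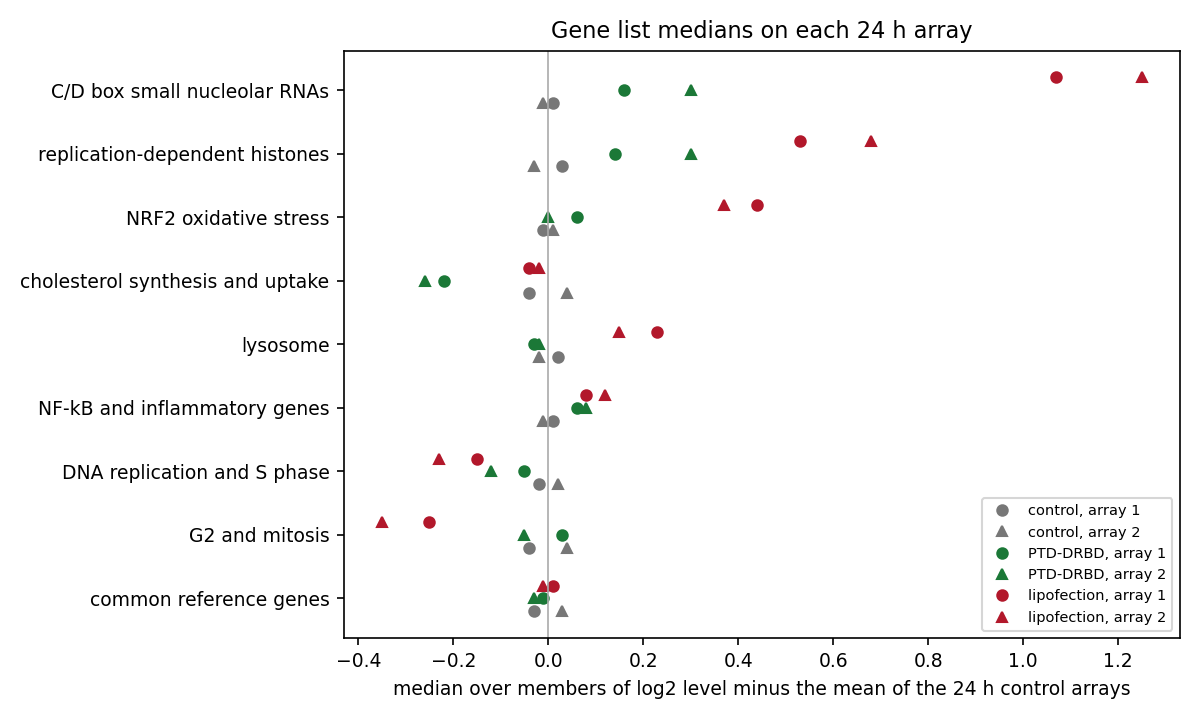
Median over the members of 9 gene lists of the log2 level on each 24 h array minus the mean of the control arrays (horizontal axis); grey marks control, green PTD-DRBD and red lipofection. C/D box snoRNAs stand at 1.07 and 1.25 with lipofection and at 0.16 and 0.30 with PTD-DRBD, and the reference genes stay between -0.03 and 0.03.

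Immediate early genes, which cells switch on within minutes of a stimulus, were in part higher with lipofection. Of 25 measured, 7 were higher and 1 was lower (median 0.17), beside 4.69% and 3.57% of all genes. Between 4 and 6 were higher with any 1 array left out and 2 without both second arrays. FOSB, a partner of the JUN proteins, was below detection on both PTD-DRBD arrays and at 6.14 and 6.13 with lipofection, at least 2.11-fold higher. NR4A2, an orphan nuclear receptor, was at 7.67 and 7.67 with PTD-DRBD against 8.67 and 8.62 with lipofection, with the control between them at 8.12 and 8.13 (0.98, SE 0.08, limma adjusted p = 4.57e-05). The zinc finger factors KLF2 and KLF4 differed by 0.61 and 0.49. Of 16 feedback genes of MAP kinase signalling, 1 was higher (DUSP5, a phosphatase, 0.35) and 1 lower (PHLDA1, -0.34), beside the same shares of all genes. Each call was lost when any 1 of 3 of the 4 arrays was left out, among them both PTD-DRBD arrays.

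Stress genes under ATF4 split in direction. Of 36 measured genes of the integrated stress response, 6 were higher with lipofection and 4 lower (median -0.04), beside 4.69% and 3.57% of all genes. With any 1 array left out 1 to 4 were higher and 2 to 5 lower, and without both second arrays 1 was higher and none lower. GDF15, a secreted stress factor, was at 6.64 and 6.50 with PTD-DRBD against 7.54 and 7.55 with lipofection (0.98, SE 0.10). DDIT3, the factor CHOP, was above the control with both carriers, by 0.98 with PTD-DRBD and 1.45 with lipofection, and its arrays read 8.22 and 8.16 in the control, 9.15 and 9.19 with PTD-DRBD against 9.49 and 9.78 with lipofection. The carriers differed by 0.47 (SE 0.11, limma adjusted p = 0.0211), a call lost without either PTD-DRBD array or without the second lipofection array. ASNS, which makes asparagine, went the other way, at 12.39 and 12.31 both in the control and with lipofection and at 12.91 and 12.84 with PTD-DRBD (-0.53, SE 0.07). SLC6A9, a glycine transporter, was also lower with lipofection (-0.66, SE 0.10). Without background correction the list gave 6 higher and 8 lower, so that its balance turned.

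Chaperone lists held few calls, and 4.69% of all genes were higher. Of 26 genes of the endoplasmic reticulum, 2 were higher, DNAJB9 (a cochaperone of BiP, 0.72, SE 0.08) and HERPUD1 (0.35), and none was lower. DNAJB9 was at 8.89 and 8.89 with PTD-DRBD against 9.68 and 9.56 with lipofection. Of 23 heat shock genes, 2 were higher, DNAJB4 (0.59) and DNAJB6 (0.32), with a median of -0.02, and HSPA8 was at -0.14. The 67 measured ribosomal protein genes gave 1 call, RPS7 lower at -0.38, beside 3.57% of all genes lower. The 31 proteasome and 73 respiratory chain genes gave none.

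The interferon response, a known reaction to double-stranded RNA, differed in a few genes. Of 36 measured interferon-stimulated genes, 4 were higher with lipofection and none was lower (median 0.08), beside 4.69% of all genes higher. Without both second arrays 2 were higher. IFIT2, which binds RNA of viruses, was at 7.56 and 7.67 in the control, 7.19 and 7.36 with PTD-DRBD against 8.41 and 8.25 with lipofection (1.05, SE 0.10, limma adjusted p = 9.34e-05). PTD-DRBD lowered it (-0.34, limma adjusted p = 0.0408), so the carriers lay on opposite sides of the control. IFIT3, of the same family, differed by 0.80 on its brightest probe and by 0.39 on the other. GBP2, a guanylate-binding protein, was below detection with PTD-DRBD and at least 1.31-fold higher. ISG15, at 0.23, OAS1, at -0.07, and IRF7, at -0.05, did not pass. Of 17 sensors and adaptors of double-stranded RNA, none differed by limma, and their values ran from -0.23 to 0.31. Of 28 genes of NF-kB and inflammation, 1 was lower, beside 3.57% of all genes lower, with a median of 0.00. It was NFKBIB, an inhibitor of NF-kB (-0.45, and -0.10 on its other probe). Of 27 genes of RNA interference, 1 was lower and 1 higher, beside 3.57% and 4.69% of all genes. AGO1, an Argonaute, was lower (-0.35). TNRC6A, its partner in silencing, was higher on its brightest probe (0.37), while the other probes gave 0.21 and -0.14.

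Genes for cell death and growth arrest showed single large values. BMF, a BH3-only protein that promotes apoptosis, was below detection with PTD-DRBD (4.62 and 4.62), at 6.10 and 6.49 with lipofection, and at least 2.35-fold higher. It was 1 of 2 calls among 27 measured genes of the BCL2 family and death receptors, where 8.25% of all genes were called; the other was BCL2L2, a survival factor, lower at -0.37. In the list of p53 targets, read here in a line without p53, 4 of 22 were higher and none was lower (median 0.21), beside 4.69% of all genes higher: TP53INP1 (0.67), CDKN1A (the cell cycle inhibitor p21, 0.49), PLK3 (0.40) and CCNG1 (0.30). For CDKN1A the control lay at 9.95 and 10.02, PTD-DRBD at 9.66 and 9.56 and lipofection at 10.13 and 10.07. Its difference thus rests on a fall with PTD-DRBD (-0.38, limma adjusted p = 0.016), whereas lipofection was 0.12 above the control (limma adjusted p = 0.321). TP53INP1 had the same pattern, at -0.57 with PTD-DRBD and 0.10 with lipofection.

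Of 36 measured genes of G2 and mitosis, 13 were lower with lipofection and none was higher, with a median of -0.27, where 3.57% of all genes were lower. In 1 of the 36 the estimate was above 0 (CDC25B, 0.03). CENPA, the histone of centromeres, was at 11.93 and 11.98 with PTD-DRBD, 11.33 and 11.47 with lipofection and 11.82 and 11.75 in the control (-0.55, SE 0.08, limma adjusted p = 0.00174). PLK1, a mitotic kinase, was at 8.80 and 8.44 against 8.10 and 8.13 (-0.51, SE 0.11). KIF14, a kinesin of cell division, differed by -0.51 and CENPF, a kinetochore protein, by -0.45. Against the shared control, lipofection lowered 21 of the 36 and raised 2 (median -0.32), beside 12.9% of all genes lowered, and PTD-DRBD raised 2 and lowered none (median 0.00), beside 5.87% raised. MKI67, a marker of dividing cells, was at 7.61 and 7.71 with PTD-DRBD against 7.19 and 7.14 with lipofection (-0.50, SE 0.09), and here the control, at 7.14 and 7.26, lay with lipofection. In bulk RNA, fewer cells in mitosis and less of these RNAs per cell cannot be told apart. Between 2 and 7 of the 36 passed with any 1 array left out and 2 without both second arrays, while the median stayed between -0.32 and -0.21.

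Of 48 measured genes of DNA replication, 5 were lower and 1 was higher (median -0.11), beside 3.57% and 4.69% of all genes. At most 2 were lower with any 1 array left out, and none without both second arrays. E2F1, which drives entry into S phase, was at 9.96 and 9.90 with PTD-DRBD against 9.60 and 9.50 with lipofection (-0.38, SE 0.08). The DNA polymerase subunits POLA2 (-0.37) and POLD1 (-0.34) were also lower, and CDT1, a licensing factor of replication origins, was higher (0.34). Each of these 4 calls was lost without at least 1 of the 4 arrays. MCM9, a helicase of DNA repair that is outside the core replication helicase, was far higher with lipofection, at 8.51 and 8.41 against 6.85 and 6.66, with the control at 6.86 and 6.88 (1.70, SE 0.09, 3.26-fold, limma adjusted p = 1.50e-06).

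Genes that were lower with lipofection than with PTD-DRBD had smaller differences. SPINT2, an inhibitor of serine proteases at the cell surface, was at 6.24 and 6.29 with PTD-DRBD, 5.02 and 5.21 with lipofection and 5.76 and 5.60 in the control (-1.15, SE 0.10, limma adjusted p = 4.81e-05). It was detected on 1 of the 2 lipofection arrays, and it lay above the control with PTD-DRBD (0.59) and below it with lipofection (-0.56). SAMD4A, which binds and represses mRNAs, was at 7.99 and 8.09 against 7.19 and 7.01 (-0.94, SE 0.08). CAMKV, a pseudokinase related to calmodulin kinases, was at 8.51 and 8.28 against 7.47 and 7.52 (-0.90, SE 0.09). In all 3 the levels of the control arrays lay between those of the carriers. PAQR4, a membrane protein, lay below the control with both carriers, at 11.02 and 10.91 in the control, 10.66 and 10.56 with PTD-DRBD against 9.92 and 9.87 with lipofection (-0.71). GLIPR1 (-0.74), NRP2 (-0.70, a receptor for semaphorins and VEGF), CPLANE2 (-0.66, a cilium gene), SLX9 (-0.66, a ribosome biogenesis factor), PYCR3 (-0.65, proline synthesis) and FOXA3 (-0.64, a forkhead factor) followed. ARHGAP11B, CITED1 and HOATZ were each at -0.64 and NHLRC2 at -0.63. Of these 10, the calls of NRP2, CPLANE2, SLX9, ARHGAP11B and CITED1 were lost without at least 1 of the 4 arrays.

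AMHR2, the receptor of anti-Mullerian hormone, was below detection with lipofection (4.82 and 4.83) and in the control (4.66 and 4.61), and at 5.84 and 5.85 with PTD-DRBD. That is at least 1.73-fold lower with lipofection than with PTD-DRBD, and the authors' deposited table lists it with a fold of 1.63 for PTD-DRBD against control. EFCAB6 (at least 1.24-fold), F11-AS1 (at least 1.20-fold), BLID (at least 1.20-fold), MEIS3 (at least 1.19-fold) and NID2 (at least 1.17-fold) were below detection with lipofection as well. Apart from BLID, those 5 lost their calls without at least 1 of the 4 arrays. BNIPL was below detection with PTD-DRBD and at least 1.55-fold higher with lipofection.

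Genes of the cell surface and matrix showed few calls, beside 4.69% of all genes higher and 3.57% lower. Heparan sulfate proteoglycans, sugar-bearing proteins that bind cationic peptides and lipids, gave 1 higher and 1 lower call among 21 measured. GPC1, a glypican, was at 5.82 and 5.92 with PTD-DRBD against 6.61 and 6.71 with lipofection (0.79, SE 0.09), and SDC1, a syndecan, was at 9.63 and 9.64 against 9.30 and 9.23 (-0.37, SE 0.08). Of 28 genes of matrix and integrins, 3 were lower, MMP10 (a protease below detection with lipofection, at least 1.16-fold), COL12A1 (a collagen, -0.60) and TNC (tenascin C, -0.53). SPARC, a matrix protein below detection with PTD-DRBD, was at least 1.26-fold higher. Of 22 hypoxia genes, 3 were higher: BHLHE40 (0.61), CITED2 (0.39) and EGLN1, the oxygen sensor. EGLN1 was at 0.32 on its brightest probe and -0.31 on the other. Against the shared control, PTD-DRBD lowered 8 of the 22 and raised none (median -0.24), beside 8.15% of all genes lowered. Lipofection lowered 4 and raised 1 (median -0.15), beside 12.9% and 10.6%. BHLHE40 was at -0.58 with PTD-DRBD and at 0.04 with lipofection, which did not pass. None of 7 metallothionein and zinc genes differed by limma, and of 26 snoRNA host genes 1 did, PTCD3 (at least 1.20-fold higher).

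The same carriers were compared at 12 h with other arrays, so the times share none. At 12 h, 1793 genes (14.8%) differed, 789 higher with lipofection (6.51%) and 1004 lower (8.29%), and 1.62% at least 1.6-fold. The 375 genes called at both times were 37.5% of the 24 h calls and 20.9% of the 12 h calls. Of them, 349 had the same direction and 26 the opposite. Of the 568 genes higher at 24 h, 200 were also called higher at 12 h and 11 lower, and 78.3% were higher by estimate. Of the 432 lower at 24 h, 149 were called lower and 15 higher at 12 h, and 72.9% were lower by estimate. Across the 12117 genes, which are not independent replicates, the differences at the times had a Pearson correlation of 0.399 and a Spearman correlation of 0.289.

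The difference itself changed between 12 h and 24 h in 454 genes (3.75%), upward in 250 (2.06%) and downward in 204 (1.68%), and by at least 1.6-fold in 1.37%. Of the C/D box snoRNAs, 7 changed, all upward, among them SNORD4A from 1.12 to 2.54 and SNORD15B from 2.33 to 3.69. Histone genes changed upward in 4 of the 49 measured and downward in 1. H2BC21 grew from 0.39 to 1.78 (change 1.39, limma adjusted p = 2.21e-04) and H2BC8 from 0.04 to 1.08. HMOX1 grew from 2.03 to 2.62 (change 0.60, limma adjusted p = 0.014), whereas NQO1 was at 0.99 and 0.98. The mitotic list turned over: at 12 h, 11 of its 36 genes were higher with lipofection and none was lower (median 0.25), and the change with time was downward in 21 and upward in none. CENPA went from 0.15 to -0.55, and CENPF from 0.27 to -0.45. MXD3, a repressor that pairs with MAX, went from 1.03 to -0.58 and DYNC1I1, a dynein chain, from 1.14 to -0.37. The NF-kB list, with 1 lower call at 24 h, had 12 lower and 1 higher at 12 h (median -0.12), and 9 members changed upward and 1 downward. CXCL8, a chemokine picked after its values were seen, was at -1.13 at 12 h and -0.04 at 24 h. AMHR2 and TPPP3 also changed by the test, but AMHR2 was below detection with lipofection at both times and TPPP3 with lipofection at 12 h and with both carriers at 24 h, so no size is given.

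**Figure D5:**
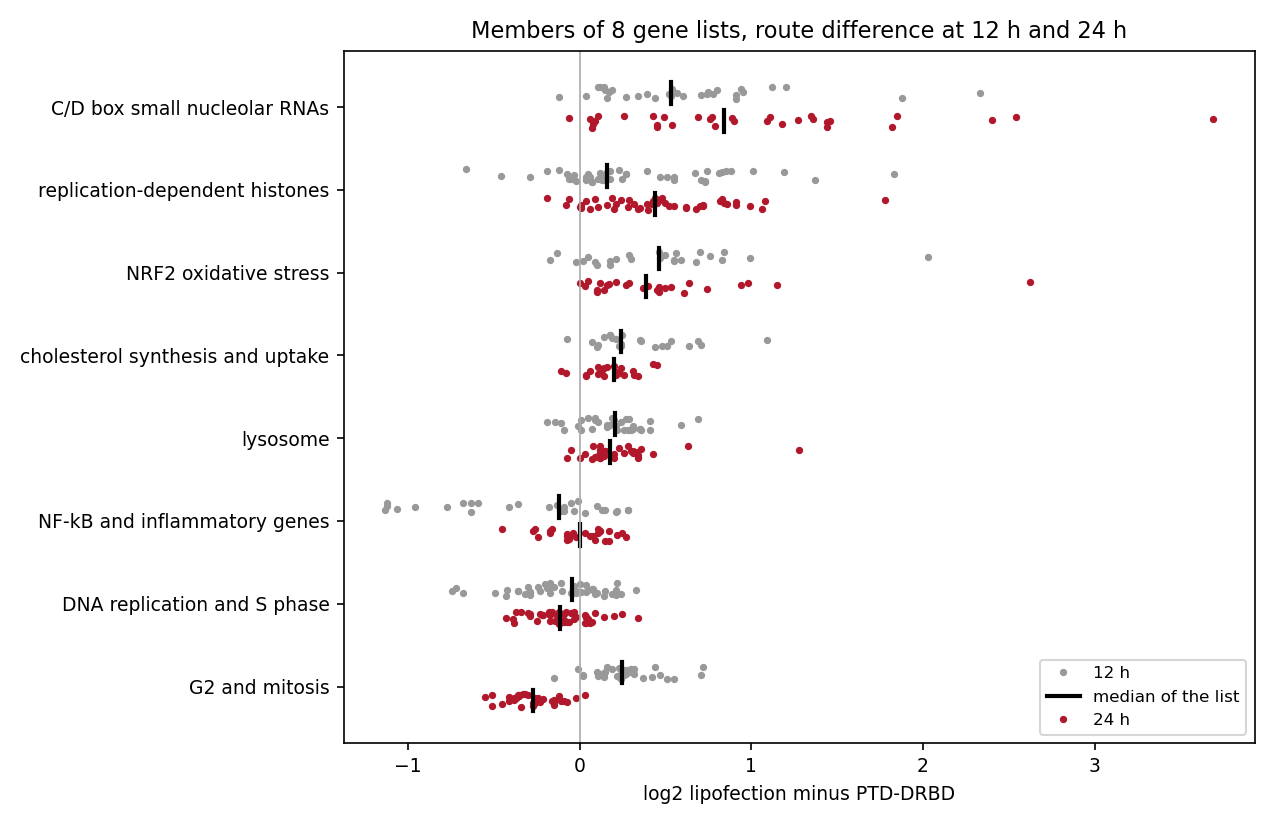
Log2 difference between lipofection and PTD-DRBD (horizontal axis) for the members of 8 gene lists at 12 h (grey) and 24 h (red), with a black bar at each list's median; points are spread vertically only to separate them. The median of G2 and mitosis moves from 0.25 to -0.27 and that of the C/D box snoRNAs from 0.53 to 0.84.

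GAPDH kept its call in every alternative that was run, and of the 120 other named genes 44 stayed on their side of the threshold in every alternative that gave them a value. For 33 of the 44 that was all 12 alternatives, and 11, such as BMF, FOSB and SPINT2, had no value where detection on all arrays was asked for. Among the 44 were SNORD15B, SNORD4A, HMOX1, RN7SK, RPPH1, H2BC21, MCM9, SRXN1, NQO1, FOSB, BMF, IFIT2, GDF15, CENPA, SPINT2, SAMD4A and CAMKV. Leaving out 1 of the 4 arrays ended the call of 50 of the 120 genes for at least 1 array, and of 21 for each of the 4 arrays. These 21 were ATP6V0D1, B2M, BCL2L2, CCNG1, CITED2, DNAJB6, DYNC1I1, EFCAB6, EGLN1, ELOVL6, EXOSC8, F11-AS1, HERPUD1, IDI1, MEIS3, PFKM, POLD1, SCD, SPARC, TNC and TNRC6A. The other 29 were ACSS2, AGO1, ARHGAP11B, CDT1, CENPF, CITED1, COL12A1, CPLANE2, DDIT3, DUSP5, E2F1, GABARAPL1, H4C2, HMGCS1, INSIG1, KIF14, LAMP2, MKI67, NCOA4, NID2, NRP2, PHLDA1, PLK1, PLK3, POLA2, PTCD3, RPS7, SDC1 and SLX9. None of the 120 turned direction in an alternative that gave it a value, and 20 of them had no value with detection on all arrays. With 2 arrays against 2, an exact permutation test of a single gene cannot go below 0.333, so the calls rest on the spread that limma pools over genes and groups. The arrays of the carriers did not overlap in 49.8% of all genes.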

How the data were processed

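RNA of H1299 cells was labelled as biotinylated cRNA with the MessageAmp kit, per the labels' protocols, and read with BeadStudio, per the submitters' processing notes. The deposited non-normalized table gives the raw intensity of 48701 probes on 12 arrays, and beside each intensity a detection p-value as deposited. The authors' normalized intensity values in the series matrix have medians of 65.6 to 65.8; the sources used here name no method for them. A table of changes deposited by the authors gives a signed score, the fold against control, for 55 and 179 probes at 24 h, all within 2% of the ratios of the series matrix.

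Intensities were background-corrected from the detection p-values (offset 16), quantile normalized and put on the log2 scale by limma's neqc (limma 3.58.1, R 4.3.3). A probe stayed in when its detection p was under 0.05 on both arrays of some group, which left 19631 (40.3%). A gene could thus enter only through groups where it was high. SNORD38B, SNORD4B, BMF, AKR1B10, GBP2, SPARC and H4C2 entered through lipofected groups alone. AMHR2 and MMP10 did so through PTD-DRBD groups. Counts over the gene lists include such genes. The platform annotation gave 1 gene for 23687 probes, several for 35 and none for 24979, and 23651 gene identifiers matched RefSeq while 36 did not; 5588 kept probes without 1 gene were left out. The brightest probe stood for each of 12117 genes. A limma model with 1 mean for each of the 6 groups used all 12 arrays (residual degrees of freedom 6, prior 5.3), with Benjamini-Hochberg adjustment in each comparison.

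Replicate arrays correlated at 0.997 to 0.998, with a median SD of 0.052 to 0.084 log2, and 2 arrays a group limit the precision. Tested on simulated data of the 24 h comparison with 12117 genes, the fit recovered 72% of changes of 0.5 log2 and 98% of changes of 1 log2, with 9 false calls. The simulated noise was independent between genes and between arrays, whereas the real arrays deviated in related ways. The 9 false calls therefore do not measure how many of the real calls are false.

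Named were GAPDH and the 15 largest rises and falls that passed without overlap of arrays and were detected on at least 1 array of each carrier. Also named were 6 bounds a direction, 6 changes with time and up to 4 passing members of each of 36 lists. This passed over 1 clone or pseudogene name among rises and 2 among falls. The members and lists were chosen with earlier results of these data known. Promoter sequences are RefSeq's (GRCh38.p14). Alternatives covered background correction, normalization, detection filter, probes, arrays fitted, moderation, fold and each array left out.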

Additional observations from a re-analysis of the deposited data

Results flagged for a closer look

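The difference between lipofection and PTD-DRBD changed from 12 h to 24 h in 34 of the named genes, by limma's test of the change itself (adjusted p under 0.05), and each is given here with its change in log2, the 24 h difference minus the 12 h one. Among small RNAs the changes were upward: SNORD4A (1.42), SNORD15B (1.36), SNORD21 (0.92), SNORD35A (0.92), SNORD14B (0.72), SNORD4B (0.65) and SNORD73A (0.62). The histone genes H2BC21 (1.39) and H2BC8 (1.04) also changed upward. Among the 49 measured histone genes, 4 changed upward and 1 downward. Changes were also upward for MCM9 (0.61), HMOX1 (0.60), BMF (0.90), GBP2 (0.85), OPTN (0.70), PLK3 (0.70) and CDKN1A (0.47). The mitotic genes KIF14 (-0.77), PLK1 (-0.75), CENPF (-0.72) and CENPA (-0.70) changed downward. So did the replication genes E2F1 (-0.57), POLD1 (-0.50) and POLA2 (-0.45). Each of these named genes had a positive 12 h value and a negative 24 h value. The replication list split, with 3 of its 48 measured genes changing downward and 2 upward. A difference that was higher with lipofection at both times shrank for INSIG1 (-0.66), TP53INP1 (-0.64) and GABARAPL1 (-0.59). Of the genes lower with lipofection at both times, the difference shrank for AMHR2 (1.63) and MMP10 (0.60) and grew for SAMD4A (-0.64). The remaining changes were MXD3 (-1.61), DYNC1I1 (-1.51), ARHGAP11B (-0.94) and NID2 (-0.58), from positive to negative estimates, and TPPP3 (1.95). AMHR2 and MMP10 (with lipofection), BMF and SNORD4B (with PTD-DRBD), GBP2, NID2 and TPPP3 were below detection on both arrays of at least 1 carrier at 1 or both times, so their fitted changes are taken against probes at background and are neither sizes nor bounds. No explanation of these changes was tested.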

How the results depend on the processing

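The lipofection and PTD-DRBD arrays differed at 24 h in 1000 genes, and in 928 to 1422 under other background correction, normalization, detection filters, probes or moderation. A fit on the compared arrays alone gave 209, a fold of at least 1.6 gave 113, and leaving out both second treated arrays gave 142, all with fewer samples or a stricter rule. Leaving out 1 array gave 375 (without the second PTD-DRBD array) to 538 (without the second lipofection array). GAPDH stayed between 1.80 and 2.19 log2, and between 1.81 and 1.95 with 1 array left out. At 12 h, 1793 genes became 196 with the fold and 697 to 1115 with 1 array left out. The 454 changes with time became 795 without background correction, 799 with the authors' values, 764 with an intensity trend, 185 with the compared arrays alone, 166 with the fold, 64 without both second arrays and 94 to 216 with 1 array left out. The cause of the first 3 was not tested. Against control, lipofection gave 2854 genes, 1166 without both second arrays and 1181 to 2680 with 1 left out. PTD-DRBD gave 1699, then 889 with the compared arrays alone, 221 without both second arrays and 179 to 1250 with 1 left out. Of 1420 values of 120 named genes under the alternatives, 1117 stayed on their side of the threshold, 303 lost their call and 0 reversed. The C/D box snoRNA median stayed between 0.51 and 0.90, that of the histones between 0.28 and 0.54, that of the NRF2 list between 0.29 and 0.41 and that of G2 and mitosis between -0.32 and -0.21. No paired analysis was possible because the labels give the groups no shared replicate numbers. For genes below detection in a group compared at 24 h the fold is given as a bound, and 2 arrays a group limit the precision.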
